A study of Mus musculus with 8 samples.

Results

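Transcripts of 10 α- and β-tubulin isotype genes were compared between whole brain hemispheres of young and old mice. The set holds the α genes Tuba1a, Tuba1b, Tuba1c and Tuba4a and the β genes Tubb2a, Tubb2b, Tubb3, Tubb4a, Tubb4b and Tubb5, selected by gene family and not by their counts, out of 22430 genes in the count table. The libraries came from 4 male C57Bl/6JRj mice aged 6 months (6m) and 4 aged 24 months (24m), 1 library per mouse, and by the study's methods RNA molecules were read directly on nanopore flow cells. Each hemisphere was taken whole, so all brain regions and cell types contributed to each library, and each age was a single time point. The question was which tubulin isotypes differ in abundance between the ages and by how much.

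Microtubules are hollow filaments built from dimers of α- and β-tubulin, and they form the tracks for axonal transport and the frame of axons, dendrites and cilia. Each subunit is encoded by a small family of genes, the isotypes, whose proteins share a nearly identical core and differ mostly in a short acidic tail at the carboxyl end that carries detyrosination, polyglutamylation and other modifications. Cells also control tubulin mRNA after transcription: when free dimers are abundant, the factor TTC5 binds the opening residues of the emerging tubulin chain and recruits SCAPER and the CCR4-NOT complex, which degrades the message.

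Total counts in the 4 libraries of 6m were 843706, 573152, 838483 and 818963 for replicates 1 to 4. Those of 24m were 660398, 903595, 742951 and 1255424. At this depth each tubulin gene was covered by 76 (Tuba1c) to 3206 (Tuba1a) counts per library. In a principal component analysis of 2720 genes the first component, 55.5% of the variance, separated the ages. The second, 20.7% of the variance, set 24m replicate 1 (score 15.5) apart from the other 7 libraries (scores -8.45 to 1.91). This library also differed most from its own age group, with a chi-square per gene of 3.25 to 4.58 against the other 24m libraries, where every other pair within an age gave 1.22 to 2.07.

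The labelled tissue was checked against cell type markers. Summed levels of 12 neuronal, 12 oligodendrocyte, 12 astrocyte and 12 microglial markers were each at least 876.4 counts per 1000000 (CPM) in every library, with Stmn3, Mbp, Cst3 and C1qa as the most abundant gene of each list. Cerebellar markers were also present, with Pvalb the most abundant. Of 12 markers of immature neurons, Dcx and Draxin had 0 counts in all 8 libraries and 7 others were too low to test.

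The α-tubulin genes come first. Tuba1a (ENSMUSG00000072235, chr15:98847714-98851589 of GRCm39) is the main α isotype of neurons and is mutated in human cortical malformations. Tuba1b (ENSMUSG00000023004, chr15:98827738-98832493) and Tuba1c (ENSMUSG00000043091, chr15:98927748-98936266) are expressed in many tissues. Tuba4a (ENSMUSG00000026202, chr1:75189219-75196566) is the α isotype whose message lacks the terminal tyrosine codon, so that its protein is made in the detyrosinated form.

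Levels below are CPM scaled by the trimmed mean of M values (TMM), which sets libraries to a common scale for the bulk of genes. Differences are log2 fold changes of 24m over 6m from an edgeR quasi-likelihood test over 9375 genes. A gene was called changed at an adjusted p of at most 0.05 and a log2 fold change of at least 0.58 in either direction. Tuba1a stood at 3037, 3169.8, 3139 and 3149 CPM in the 6m libraries and at 2523, 2203, 2480 and 2459 in the 24m libraries. All 24m values lay under all 6m values, and the 6m values were tightly grouped. The mean was 3124 ± 59.5 CPM (SD, n = 4) at 6m and 2416 ± 145 (SD, n = 4) at 24m, a log2 fold change of -0.37 (95% interval -0.54 to -0.20, edgeR adjusted p = 0.0026). Tuba1b measured 2633, 2589, 2457 and 2549 CPM at 6m and 2367, 1961, 1913 and 2005 at 24m. Here too the ages did not overlap, although 24m replicate 1 was close to the 6m libraries. Its log2 fold change was -0.31 (95% interval -0.49 to -0.13, edgeR adjusted p = 0.013).

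The remaining α isotypes overlapped between the ages. Tuba4a ranged from 856.7 to 1011 CPM at 6m and from 824.5 to 964.8 at 24m, with a log2 fold change of -0.10 (95% interval -0.28 to 0.09, edgeR adjusted p = 0.47), which was 0.01 on library sizes alone, 0.08 on quantile-normalised counts, -0.20 with a transcript-length trend taken off, and -0.14 to -0.04 with a library left out. Tuba1c, the least abundant α isotype at 138.5 ± 16.9 CPM (SD, n = 4) at 6m and 133.9 ± 30.9 (SD, n = 4) at 24m, had a log2 fold change of -0.04 (95% interval -0.34 to 0.27), which became 0.07 on library sizes alone and ran from -0.18 to 0.09 with a library left out. In bulk tissue, fewer cells that express a gene and less of its RNA per cell cannot be told apart.

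**Figure D1:**
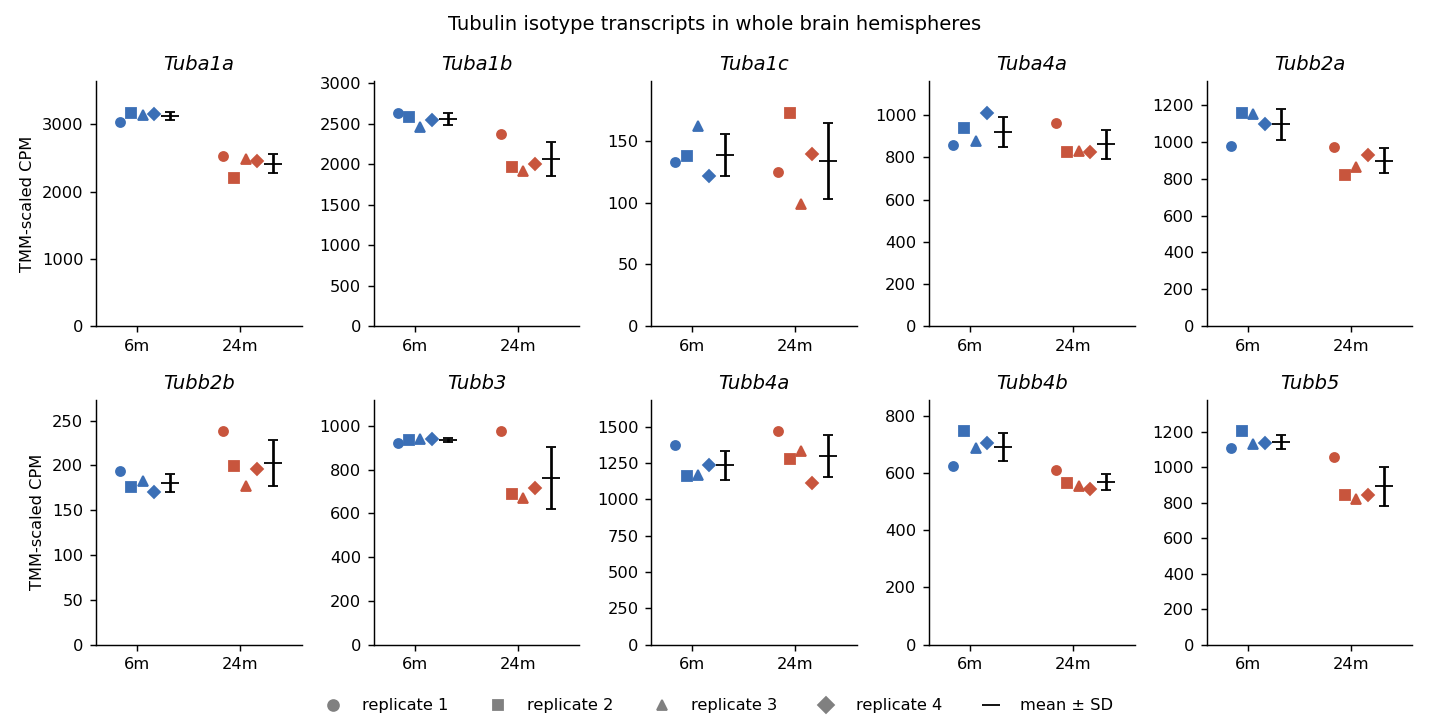
TMM-scaled CPM of each tubulin isotype in the 4 libraries of 6m (blue) and the 4 of 24m (red), by replicate number, with the mean and SD as black bars. Tuba1a, Tuba1b, Tubb2a, Tubb4b and Tubb5 are lower in all 24m libraries than in any 6m library, and Tubb3 is lower in all but 24m replicate 1 (974 CPM).

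Among the β-tubulins, Tubb5 (ENSMUSG00000001525, chr17:36144809-36149198) and Tubb4b (ENSMUSG00000036752, chr2:25112170-25114714) are widely expressed. Tubb2a (ENSMUSG00000058672, chr13:34257549-34261998) and Tubb2b (ENSMUSG00000045136, chr13:34307245-34315143) are neighbouring genes expressed in the nervous system, the latter best known from neuronal migration. Tubb3 (ENSMUSG00000062380, chr8:124138163-124150092) is largely confined to neurons and is a standard neuronal marker, and Tubb4a (ENSMUSG00000062591, chr17:57387057-57394782) is prominent in brain, where it is mutated in a human disease of myelin. The tails of the 2 β pairs whose ratios were compared are shown as the last 75 coding bases, all within the last exon, from GENCODE vM39 on GRCm39 and on the coding strand, with glutamate and aspartate codons in capitals.
Tubb2a (chr13:34258451-34258525, minus strand): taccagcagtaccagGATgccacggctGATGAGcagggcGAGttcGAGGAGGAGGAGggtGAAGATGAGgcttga
Tubb2b (chr13:34311454-34311528, minus strand): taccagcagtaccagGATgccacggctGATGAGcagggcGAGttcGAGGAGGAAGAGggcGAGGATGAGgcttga
Tubb4a (chr17:57387690-57387764, minus strand): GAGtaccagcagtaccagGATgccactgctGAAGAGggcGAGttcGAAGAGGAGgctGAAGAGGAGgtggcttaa
Tubb4b (chr2:25112320-25112394, minus strand): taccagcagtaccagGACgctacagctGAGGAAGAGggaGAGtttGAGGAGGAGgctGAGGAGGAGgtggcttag
Each of these 4 windows holds 11 acidic codons, and those of Tubb3 and Tubb5 hold 12.

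Tubb5 stood at 1105, 1201, 1129 and 1136 CPM at 6m and at 1058, 844.2, 821.6 and 841.4 at 24m. The ages did not overlap, and 24m replicate 1 lay far above the other 3 libraries of its age. The log2 fold change was -0.36 (95% interval -0.55 to -0.17, edgeR adjusted p = 0.006). Tubb2a gave 977.3, 1157, 1153 and 1095 CPM at 6m and 972.5, 821.3, 862.5 and 930.4 at 24m. These groups did not overlap, but 6m replicate 1 and 24m replicate 1 nearly met. Its log2 fold change was -0.29 (95% interval -0.47 to -0.11, edgeR adjusted p = 0.021). Tubb4b gave 625.3, 745, 687 and 703.2 CPM at 6m against 609.7, 563.5, 555.4 and 544.6 at 24m. All its 24m libraries were under the 6m libraries, and the log2 fold change was -0.28 (95% interval -0.46 to -0.10, edgeR adjusted p = 0.023).

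Tubb3 was at 920.7, 934.8, 939.7 and 940.5 CPM in the 6m libraries, an SD of 9.18 around 933.9 (n = 4). In the 24m libraries it was at 974, 690.3, 670.6 and 714.1 CPM, so that 24m replicate 1 exceeded every 6m library while the other 3 were lower than all of them. Its log2 fold change was -0.30 (95% interval -0.51 to -0.09, edgeR adjusted p = 0.035) with all libraries and -0.42 (edgeR adjusted p = 2.6e-05) without 24m replicate 1. Without that library, the log2 fold changes of Tubb5 and Tuba1b were -0.44 and -0.37, and that of Tuba1a -0.38.

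Tubb4a and Tubb2b were the 2 members with a log2 fold change above 0, and neither passed the test. Tubb4a ranged from 1159 to 1374 CPM at 6m and from 1114 to 1468 at 24m, with a log2 fold change of 0.07 (95% interval -0.12 to 0.26, edgeR adjusted p = 0.64). Tubb2b averaged 180.6 ± 9.82 CPM (SD, n = 4) at 6m and 202.6 ± 25.6 (SD, n = 4) at 24m, with a log2 fold change of 0.16 (95% interval -0.08 to 0.39, edgeR adjusted p = 0.35). Over alternative settings Tubb4a ran from 0.01 without 24m replicate 1 to 0.25 on quantile-normalised counts (DESeq2 adjusted p = 0.078; 0.17 on library sizes alone), and Tubb2b from 0.06 with the length trend taken off to 0.26 on library sizes alone (0.09 without 24m replicate 1). Both differences stayed above 0 in each of the 21 alternative settings.

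Counted over the family, 0 of 10 members were changed in edgeR by both thresholds, where 14.5% of all tested genes were. The count was also 0 in DESeq2 and limma-voom, where 834 and 1267 of 9375 genes were changed, and 6 members had an unadjusted p under 0.05 in edgeR, as did 3219 of the 9375 genes. The 95% intervals of all 10 members lay within 0.58 on either side of 0. By an adjusted p of at most 0.05 alone, 6 of 10 members differed (21.7% of all genes). All 6 were lower at 24m (9.42% of all genes were lower by this rule), 2 of them α and 4 β, and 0 were higher (12.3% of all genes). In edgeR the 4 members that did not pass were Tuba1c, Tuba4a, Tubb2b and Tubb4a.

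Tubulin genes are counted deeply, which makes small differences easier to detect. Among the 1458 genes with a mean count of at least 100, a group that includes all 10 members, 25.0% were lower at 24m by adjusted p alone. In that group 40.4% passed by adjusted p alone in either direction, and 9.60% were changed by both thresholds. Groups of libraries did not overlap for 5 members, all lower at 24m, against 21.1% of all genes in either direction and 9.96% in the lower direction. The median log2 fold change was -0.28 over the members and near 0 over all genes. The members were chosen with earlier results of these data known, so these shares are a description.

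The count of 6 differed between settings, and so did the count over all genes, of which 883 of 9375 were lower by adjusted p alone in edgeR. On library sizes alone, a scaling that moved the median log2 fold change of all genes up by 0.105, Tuba1a, Tuba1b and Tubb5 still passed, and 479 of 9375 genes were lower. With DESeq2, 5 members passed on raw counts and 493 genes were lower; on quantile-normalised counts 0 passed and 436 genes were lower. In the latter 2 members had an unadjusted p under 0.05, and the log2 fold change of Tuba1a was -0.07. Leaving out single libraries left between 2 and 6 members below the threshold for adjusted p: the count was 2 without 24m replicate 3, and 3 without any of 6m replicates 2, 3 and 4 or 24m replicate 2. Genes lower by adjusted p alone numbered 1154 of 9463 without 24m replicate 1, where 6 members passed, and 520 to 669 without any other library. Tuba1a and Tubb5 passed in each of those 8 cases. Of 21 alternative settings, the call by adjusted p alone was lost in 10 for Tubb3, 10 for Tubb4b, 7 for Tubb2a and 3 for Tuba1b. With a library left out their log2 fold changes were -0.42 to -0.24, -0.32 to -0.23, -0.33 to -0.24 and -0.37 to -0.27 in that order, and on quantile-normalised counts -0.11, -0.17, -0.10 and -0.10.

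**Figure D2:**
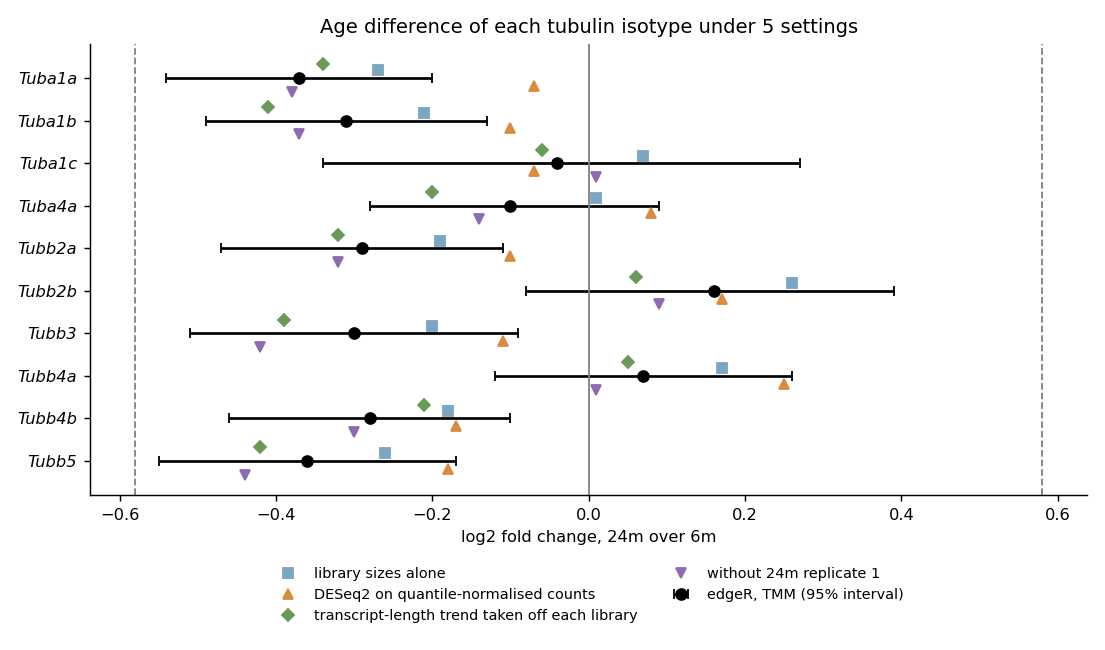
Log2 fold change of 24m over 6m for each isotype, with the edgeR estimate and its 95% interval in black and 4 alternative settings as coloured symbols; dashed lines mark 0.58 on either side of 0. Every black interval lies inside the dashed lines, quantile normalisation brings Tuba1a to -0.07, and Tuba1c and Tuba4a change sign between settings.

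Levels of different genes were compared per kilobase of the canonical transcript and on plain CPM, since a direct RNA read stands for 1 molecule whatever its length. Per kilobase, Tuba1a led at 6m with 1728 ± 32.9 CPM per kilobase (SD, n = 4), ahead of Tuba1b at 761.5 ± 22.3 and Tubb4a at 552.2 ± 44.3. Next came Tubb2a at 471 ± 36.0, Tubb4b at 431.3 ± 31.0 and Tubb5 at 430.9 ± 15.4, whose ranges over libraries overlapped from each to its neighbour. Tubb3 at 291.3 ± 2.86 and Tuba4a at 265.4 ± 20.1 overlapped as well, and Tuba1c at 60.7 ± 7.40 and Tubb2b at 31.2 ± 1.69 were lowest. At 24m the per-kilobase order was the same but for Tuba4a and Tubb3, which exchanged places within overlapping ranges, and Tuba1b and Tubb4a overlapped at 613.9 ± 61.7 and 580.7 ± 65.6 CPM per kilobase. On plain CPM the order differed. At 6m it ran Tuba1a, Tuba1b, Tubb4a, Tubb5, Tubb2a, Tubb3, Tuba4a, Tubb4b, Tubb2b and Tuba1c, with overlapping neighbours from Tubb4a to Tubb2a and between Tubb3 and Tuba4a. At 24m, on plain CPM, Tuba1a (2416 ± 145 CPM) and Tuba1b (2062 ± 207 CPM) overlapped, Tubb4a (1299 ± 147 CPM) was apart from both, and Tubb2a, Tubb5, Tuba4a and Tubb3 overlapped from each to the next. Tubb4b, Tubb2b and Tuba1c were again the lowest on that scale.

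Shares of each pool do not depend on the scaling between libraries. Within the α counts, Tuba1a held 46.3 ± 0.72% (SD, n = 4) at 6m and 44.2 ± 2.10% at 24m, and Tuba1b 37.9 ± 1.12% and 37.6 ± 1.56%, with overlapping libraries in both cases. Tuba4a, the isotype without a tyrosine codon, held 12.9, 13.7, 13.2 and 14.8% of α counts in the 6m libraries and 16.1, 16.0, 15.6 and 15.2% in the 24m libraries. Every 24m library was above every 6m library. Within the β counts, the share of Tubb5 was 21.6 ± 0.48% (SD, n = 4) at 6m and 19.3 ± 0.54% at 24m, lower in all 24m libraries. Tubb2b took 3.4 ± 0.23% and 4.4 ± 0.26%, higher in all 24m libraries. Tubb4a was the largest β share at both ages, at 23.4 ± 2.16% and 28.1 ± 1.97%, and overlapped through 6m replicate 1 and 24m replicate 4.

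**Figure D3:**
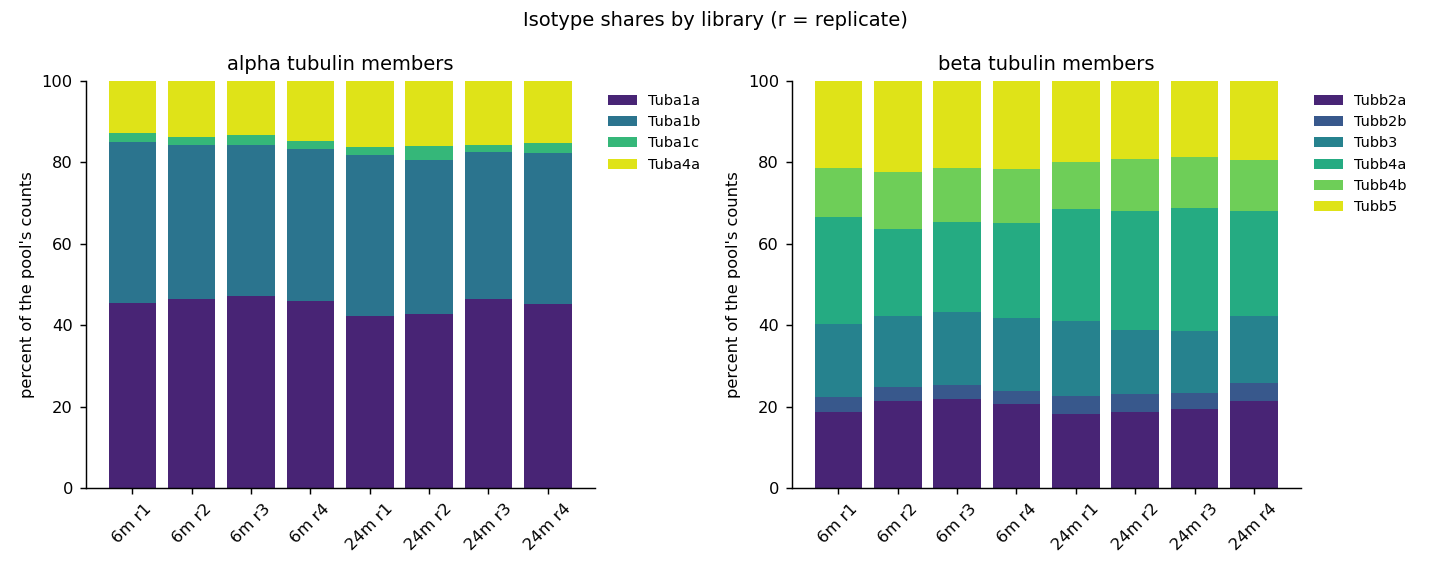
Percent of the α counts (left) and of the β counts (right) that each isotype held in each of the 8 libraries. Tuba1a and Tuba1b together make up more than 80% of the α counts in every library, and the Tuba4a band is thicker in the 24m libraries (15.2 to 16.1%) than in the 6m libraries (12.9 to 14.8%).

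Summed over the 10 members, tubulin counts came to 11855, 12207, 11894 and 12117 CPM at 6m and to 11299, 9559, 9746 and 9771 at 24m. The 24m libraries were all lower, with 24m replicate 1 close to the 6m level. The means were 12018 ± 171 and 10094 ± 809 CPM (SD, n = 4 each), a difference of -16.0%, or -9.87% on library sizes alone, where tubulins took 1.16 ± 0.0216% of all counts at 6m and 1.05 ± 0.0519% at 24m. The α sum did not overlap between the ages (6739.7 ± 108 and 5473 ± 355 CPM) and the β sum did (5278 ± 73.1 and 4620.2 ± 468 CPM), through 24m replicate 1 at 5319.6 CPM; the other 24m libraries were at 4341 to 4423. The log2 difference of the summed level was -0.255 with all libraries and -0.31 without 24m replicate 1. The ratio of α to β counts was 1.28 ± 0.0133 at 6m and 1.19 ± 0.0532 at 24m, lower in all 24m libraries. These sums are descriptions of chosen members and were given no test.

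Ratios of paralogs within a library were tested by an exact two-sided permutation test over the 70 assignments of libraries to ages, 3 ratios in all. Tubb2a and Tubb2b lie 45246 bases apart and are 96.5% identical over their coding bases, the closest β pair. The ratio of Tubb2a to Tubb2b counts was 5.06, 6.60, 6.30 and 6.41 at 6m and 4.09, 4.11, 4.88 and 4.74 at 24m. Every 24m library was lower, and the mean log2 ratio differed by -0.45 (exact p = 0.029, the smallest these 70 assignments allow, 0.086 adjusted over the 3 ratios). The ratio of Tubb4a to Tubb4b was 1.80 ± 0.28 at 6m and 2.28 ± 0.17 at 24m, with 6m replicate 1 (2.20) inside the 24m range, and its log2 difference of 0.35 had an exact p of 0.057 (0.086 adjusted). It was 0.446 with an unadjusted exact p of 0.029 without 6m replicate 1. With any other library left out, the unadjusted exact p was 0.057 to 0.086. Tuba1a to Tuba1b stood at 1.22 ± 0.052 and 1.18 ± 0.10, a log2 difference of -0.06 (exact p = 0.46). With a library left out it was -0.104 to -0.01.

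Near-identical coding sequence can move reads between isotypes. Coding identity ran from 84.7 to 98.3% between α members, where Tuba1a and Tuba1b form the closest pair, and from 81.5 to 96.5% between β members. Between an α and a β member it was 54.1 to 57.1%. The 3′ untranslated ends, where direct RNA reads begin, were only 41.9 to 48.2% identical in all pairs over up to 300 bases, no closer within a pair of near copies than between α and β. Copies at 95% identity or more over at least 50% of the transcript also exist for Tuba1a, Tuba1c and Tubb4b as processed pseudogenes that are absent from the count table, such as Tubb4b-ps1 at 98.4% over 83.7% of Tubb4b. Tuba1b and Tubb2b, whose canonical transcripts are longer, have near copies that cover less than that share. Gm17383 matches Tuba1b at 98.7% over 1356 bases, and Tubb2a-ps2 matches Tubb2b at 97.4% over 1342 bases. Both are likewise absent from the count table. A read assigned to such a copy alone would be missing from the isotype's count.

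The count table also holds a gene nested within tubulin exons. Gm49450, a gene chosen after its values were seen, is a readthrough model on the same strand whose 899 exonic bases all lie in exons of Tuba1a (473 bases) or Tuba1b (426 bases). In the GENCODE vM39 canonical models its bases begin 1178 bases from the 3′ end of the Tuba1a transcript and 2280 bases from that of Tuba1b. Where the reads themselves end was not measured. Its counts were 1173, 843, 1116 and 1231 at 6m and 1767, 2408, 2136 and 3243 at 24m, a log2 fold change of 0.82 (edgeR adjusted p = 3.7e-07), and it was among the 10.3% of all genes changed and higher at 24m. The ratio of its count to the sum of the Tuba1a and Tuba1b counts was 25.5, 26.5, 24.8 and 27.1% at 6m. At 24m this ratio was 55.1, 60.1, 62.2 and 55.7%. The ages were far apart, in the direction opposite to that of Tuba1a and Tuba1b themselves.

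Of 93 tested genes with no exonic base of their own, Gm49450 among them, 21 were changed and higher and 1 changed and lower. Over all genes these shares were 10.3% and 4.17%, and the median log2 fold change of the 93 genes was 0.14. A second nested pair, also chosen after its values were seen, gave a difference similar to that of Gm49450. Snurf shares bases with the first 3 exons of Snrpn, beginning 3470 bases from the 3′ end of the canonical Snrpn transcript. The ratio of Snurf to Snrpn counts was 36.7 ± 2.74% (SD, n = 4) at 6m and 66.6 ± 3.11% at 24m, without overlap. By contrast the ratio of the Cimip2a count to the Tubb4b count was 84.5 ± 1.31% at 6m and 85.5 ± 1.22% at 24m. Cimip2a shares 128 bases at the very 3′ end of Tubb4b, on the opposite strand. Gm45713 equalled the sum of Rpl13a and Flt3l, the genes it spans, to within 0.1% in each library. Cimip2a, Gm45713, Rpl13a and Flt3l were likewise chosen after their values were seen. The overlap and strand settings of the counting were not found in the methods or processing notes, and the study's own code could not be read here, so whether reads of Gm49450 were also counted for Tuba1a and Tuba1b was not tested. The other genes on the opposite strand of a member, Stk16 at Tuba4a, Bphl at Tubb2a and Flot1 at Tubb5, also named after their values were seen, had 28 to 200 counts per library, far fewer than the tubulin, unlike Cimip2a at Tubb4b. Over all genes, the median log2 fold change was -0.13 for the 2340 genes with the shortest transcripts (38 to 1967 bases, Tuba1a and Tubb4b among them). It was 0.02, 0.09 and 0.06 in the next 3 groups of similar size. The part of these differences in the tubulin results was not tested. With a transcript-length trend taken off each library, an alternative chosen after seeing the data, the log2 fold changes were -0.34 for Tuba1a, -0.41 for Tuba1b, -0.42 for Tubb5 and -0.39 for Tubb3, and Tubb4b (-0.21, edgeR adjusted p = 0.064) no longer passed.

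**Figure D4:**
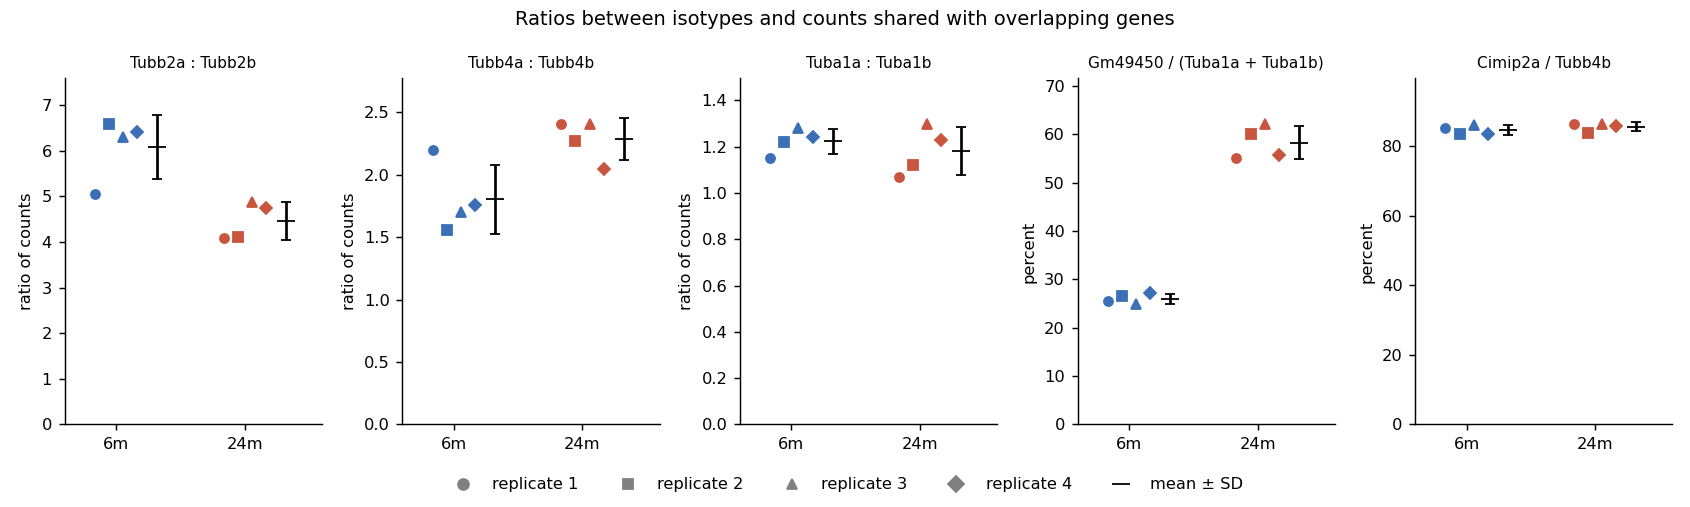
Ratios of counts between paralogs (first 3 panels) and counts of Gm49450 and Cimip2a as a percent of the tubulin counts they overlap (last 2 panels), per library with mean and SD. Gm49450 lies between 24.8 and 27.1% at 6m and between 55.1 and 62.2% at 24m, while Cimip2a is between 83.4 and 86.4% in all libraries.

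Other tubulin genes were sparse. Tuba3a and Tubal3 had 0 counts in all libraries. Tuba3b and Tubb1, a platelet isotype, had 1 count each, both in 24m replicate 1. Tubb6 had 2 to 8 counts per library and Tube1, the ε-tubulin of centrioles, 0 to 4, and these 6 genes were not tested. Of the 4 tested, 0 were changed or passed by adjusted p alone in edgeR (14.5% and 21.7% of all genes). The γ-tubulins Tubg1 and Tubg2, which template microtubule nucleation, had log2 fold changes of -0.39 and -0.32 (edgeR adjusted p = 0.059 and 0.10), Tuba8 of -0.13 and Tubd1 of -1.16 (edgeR adjusted p = 0.61 and 0.060), the last on 2 to 10 counts per library. Tubg1 passed with limma-voom (adjusted p = 0.049) and without 24m replicate 1 (edgeR adjusted p = 0.020).

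Genes of tubulin folding were examined next. Newly made tubulin is passed by prefoldin to the ring-shaped chaperonin CCT and then assembled by the tubulin cofactors. Of 22 listed genes 21 were tested, 19 had a log2 fold change below 0, and the median was -0.31. By adjusted p alone 9 of 21 were lower and 0 higher (9.42% and 12.3% of all genes; 25.0% lower among genes with a mean count of at least 100), and 7 of those 9 encode CCT subunits, a grouping made after the values were seen. By both thresholds, by which 4.17% of all genes fell, 1 gene of the list fell, Cct4, from 167.6 ± 18.0 to 105.4 ± 14.1 CPM (SD, n = 4; log2 fold change -0.65, edgeR adjusted p = 0.0011). It was not changed in 2 of 21 alternative settings, with -0.54 on library sizes alone and a value just under the threshold without 24m replicate 1. Pfdn5, the prefoldin subunit with the most counts, went from 768.4 ± 11 to 608.4 ± 82.2 CPM (log2 fold change -0.34, edgeR adjusted p = 0.011) and did not pass on quantile-normalised counts or with the length trend taken off. The summed level of the list was 4209 ± 109 CPM at 6m and 3335 ± 165 at 24m, a difference of -20.8% with all 24m libraries lower.

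Autoregulation starts from the opening residues of the emerging chain, and the first 12 coding bases of both Tubb3 and Tubb4b, which encode them, are ATGAGGGAGATC. Of the 4 genes tested, 2 fell and 0 rose (4.17% and 10.3% of all genes). Cnot1, the scaffold of CCR4-NOT, stood at 89.9, 90.4, 93.4 and 89.2 CPM at 6m and at 56.4, 42.6, 44.8 and 46.0 at 24m. It was lower in every 24m library, with a log2 fold change of -0.95 (edgeR adjusted p = 7.6e-05). Scaper went from 21.5 ± 6.58 to 12.2 ± 2.57 CPM (SD, n = 4; log2 fold change -0.83, edgeR adjusted p = 0.045), on 7 to 25 counts per library, and did not pass in 11 of 21 alternative settings, where its adjusted p reached 0.25. The other 2, named after their values were seen, did not pass: Cnot11 was at 17.4 ± 4.58 CPM at 6m and 27.2 ± 4.13 at 24m (SD, n = 4; log2 fold change 0.67, edgeR adjusted p = 0.059), higher in all 24m libraries, and Ttc5 had a log2 fold change of -0.05 (edgeR adjusted p = 0.88).

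Enzymes that modify tubulin showed no common direction. Of 24 listed genes 15 were tested, 7 with a log2 fold change above 0 and 8 below, with a median of -0.03, and 0 were changed in edgeR (14.5% of all genes). Sirt2, a tubulin deacetylase abundant in oligodendrocytes, was at 155.4 ± 8.42 CPM at 6m and 197.2 ± 6.44 at 24m (SD, n = 4), higher in all 24m libraries, and was the 1 gene of the list to pass by adjusted p alone, against 21.7% of all genes and 12.3% higher (log2 fold change 0.34, edgeR adjusted p = 0.030). It did not pass in 8 of 21 alternative settings, where its adjusted p reached 0.08. Agbl1, a deglutamylase, had 0 counts. In the list of nucleation and severing factors 12 of 15 genes were tested and 0 passed in edgeR by both thresholds or by adjusted p alone (14.5% and 21.7% of all genes), with a median log2 fold change of -0.13. Its most abundant gene, Mzt2, a small subunit of the γ-tubulin complex, gave -0.15 (edgeR adjusted p = 0.54), with -0.27 to -0.06 when a library was left out and -0.02 with the length trend taken off.

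Markers of cell types also differed between the ages, and their part in the tubulin differences was not tested. Their counts stand against 14.5% of all genes changed, 10.3% higher and 4.17% lower. All 12 neuronal markers were tested, with 2 changed and higher and 0 changed and lower, and their sum was 5997, 6085, 6028 and 6259 CPM at 6m and 6274, 6273, 6429 and 6391 at 24m, higher in all 24m libraries by 4.10% on the means. Stmn3, the most abundant, itself a regulator of microtubule stability, went the other way (log2 fold change -0.28, edgeR adjusted p = 0.032). That call was lost in 9 of 21 alternative settings, with a log2 fold change of -0.08 on quantile-normalised counts. Of the 12, 9 had a log2 fold change above 0, and by adjusted p alone in edgeR 6 were higher and 1, Stmn3, lower (12.3% and 9.42% of all genes). The 2 changed markers, named after their values were seen, were Snap25 (0.77, edgeR adjusted p = 0.0032, not changed in 2 of 21 alternative settings) and Thy1 (0.68, edgeR adjusted p = 1e-05). Oligodendrocyte markers, 12 of 12 tested with 2 changed and higher, summed to 3598, 3003, 3276 and 3737 CPM at 6m and 4719, 4354, 4763 and 3943 at 24m. Mbp, their most abundant gene, rose from 1073 ± 222 to 1770.2 ± 315 CPM (SD, n = 4; log2 fold change 0.72, edgeR adjusted p = 0.00025).

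Progenitors of oligodendrocytes had 5 of 8 markers tested and 0 changed, with Bcas1 the most abundant (log2 fold change 0.47, edgeR adjusted p = 0.011). Their sums were 264.6, 218.8, 229 and 285.1 CPM at 6m and 288.1, 330.6, 367.3 and 331.4 at 24m. By adjusted p alone 2 of the 5 were higher and 0 lower (12.3% and 9.42% of all genes). These were Bcas1 and Olig1 (just under 0.58, edgeR adjusted p = 0.0049). Olig2 was at 0.44, Cspg4 at 0.03 and C1ql1 at -0.35 (edgeR adjusted p = 0.39, 0.97 and 0.31). Pdgfra, Gpr17 and Enpp6 were too low to test. Progenitor markers other than Bcas1 were named after their values were seen. For microglia 3 of 10 tested markers were changed, all higher, and the sums were 876.4, 880.6, 931 and 926.7 CPM at 6m and 1370.3, 1087, 1208 and 1171 at 24m. C1qa led this list (log2 fold change 0.47, edgeR adjusted p = 0.012). Astrocyte markers summed to 11534, 11243, 11611 and 11997 CPM at 6m and 12316, 10741, 10511 and 10702 at 24m, with 4 of 11 changed and higher, 1 changed and lower, and Cst3 most abundant (log2 fold change -0.13 with TMM, edgeR adjusted p = 0.35; 0.06 on quantile-normalised counts; -0.20 without 24m replicate 1, edgeR adjusted p = 0.0056). Cst3 alone held 5353 of the 11597 CPM of the astrocyte sum at 6m on the means. Of the tested astrocyte markers, 5 had a log2 fold change above 0 and 6 below. The changed ones, named after their values were seen, were Gfap (1.94), Slc1a3 (1.65), Gja1 (1.42) and Glul (0.65). The 1 changed and lower was Slc1a2 (-0.59), also named after its values were seen. Immature neuron markers summed to 57.9, 70.5, 87.1 and 71.6 CPM at 6m and 76.2, 65.5, 92.1 and 97.4 at 24m. Of 3 tested, 1 was changed, Tbr1, the most abundant (log2 fold change 0.81, edgeR adjusted p = 0.040, not passed in 11 of 21 alternative settings). The other 2 had log2 fold changes below 0.

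The sum of endothelial markers was lower in all 24m libraries, at 1247, 1117, 1195 and 1158 CPM at 6m and 972.5, 894.1, 845.9 and 857.5 at 24m, with 0 of 5 tested changed and the other 5 too low to test. Bsg made up most of it, 998.3 of 1179 CPM at 6m on the means (log2 fold change -0.43, edgeR adjusted p = 0.00094). On quantile-normalised counts the log2 fold change of Bsg was -0.24 (DESeq2 adjusted p = 0.043). By adjusted p alone 2 of the 5 passed, both lower (21.7% of all genes passed and 9.42% were lower). Blood markers were the only list with every gene changed and lower, 5 of 5, with sums of 6998, 7943, 10032 and 6090.3 CPM at 6m and 6283, 3958, 4476 and 3350.4 at 24m. The sum of 24m replicate 1 lay within the 6m range. Hba-a1, the most abundant, had a log2 fold change of -0.75 (edgeR adjusted p = 0.00047), and was not changed in 2 of 21 alternative settings, with -0.49 on quantile-normalised counts and -0.57 with the length trend taken off. Ependymal and choroid plexus markers, 0 of 8 changed and led by Ttr, varied within ages, at 4722, 3161, 3350.5 and 4445 CPM at 6m and 4713, 4355, 2467 and 2741 at 24m. Cerebellar markers, 4 of 11 changed and all 4 higher, summed to 3050.1, 2305, 2331 and 2593 CPM at 6m and 2965, 2627, 2365 and 2425 at 24m. Of the 11, 9 had a log2 fold change above 0 and 2 below, with a median of 0.70. The 4 changed, named after their values were seen, were Cbln3 (1.76, on 1 to 17 counts per library), Zic2 (1.27), Cbln1 (0.76) and Car8 (0.72). Pvalb held 928.6 of the 2569.9 CPM of the sum at 6m on the means. The log2 fold changes of Ttr (-0.11) and Pvalb (-0.09) were above 0 on quantile-normalised counts, at 0.15 and 0.09.

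**Figure D5:**
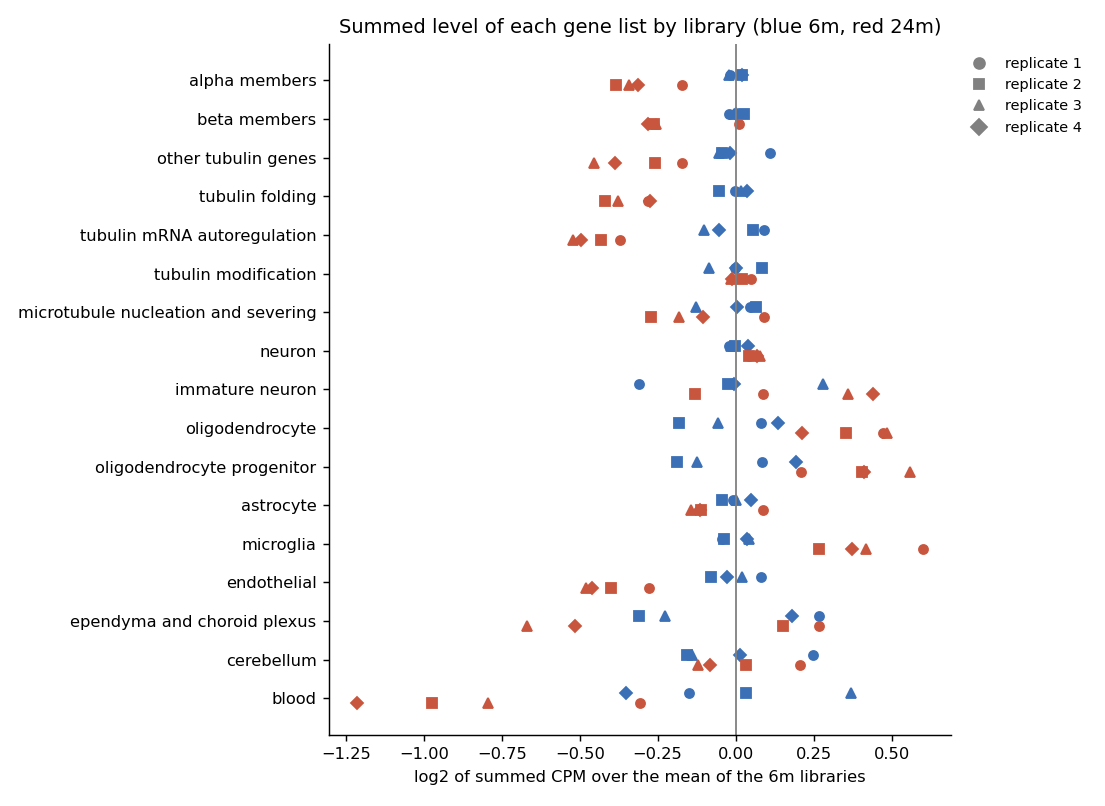
Summed CPM of each gene list in each library, as log2 of the value over the mean of the 6m libraries (blue 6m, red 24m, symbols by replicate number). The α sum and the folding list lie lower in all 24m libraries, the oligodendrocyte and microglial lists higher, and in the β sum 24m replicate 1 lies with the 6m libraries.

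Genes whose levels followed the summed tubulin level most closely, after the mean of each age was taken off, were sought among 2709 genes with a mean count over 50. The 5 highest were Eif3h (Pearson r = 0.989), Eif3i (0.985), Rpl9-ps6 (0.984), Rplp2 (0.982) and Rplp2-ps1 (0.981), over 8 libraries. They encode or derive from translation initiation factor subunits and ribosomal proteins. Without 24m replicate 1 the same correlations were 0.751, 0.849, 0.764, 0.738 and 0.650, so the closeness rested in part on that library. These values are descriptions, since all genes of a library share the depth and the scaling of that library.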

How the data were processed

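RNA of 8 whole brain hemispheres, 4 per age, was sequenced directly on nanopore flow cells by the study's methods, while the labels name a short-read poly(A) kit; the methods were followed, and the choice bears on reading counts as molecules. Per the study's methods and the submitters' processing notes, reads were aligned to GRCm39 with minimap2 2.24 and counted per gene with featureCounts, and the deposited table of the authors holds raw counts. Strand and overlap settings appear in neither; the study's code, deposited elsewhere, could not be read here. Gene symbols, exons and sequences were taken from GENCODE vM39, which matched 22281 of 22430 identifiers; 188 of 189 listed symbols were found, and only Matcap was missing.

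The test covered genes that averaged more than 5 counts and used edgeR 4.0.16 (quasi-likelihood, TMM, age as the only term, Benjamini-Hochberg adjustment) in R 4.3.3, after a check on simulated data. Alternatives used DESeq2 1.42.0, limma 3.58.1, other scalings and filters, and single libraries left out. Paralog ratios used counts plus 0.5 and exact permutation tests that enumerated all assignments in Python 3.11.15 (numpy 2.4.6, pandas 2.3.3). The depth per library is given with the results. Intervals cover the spread between mice and counting error as the model estimates them.

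The members and lists were chosen with earlier results of these data known. Genes were named by rule: all members and other tubulin genes, up to 5 changed genes per direction and the most abundant gene of each tubulin list, the most abundant marker of each cell type, and the 5 genes most like the summed level. Genes of the count table outside this rule are described as chosen after their values were seen. Dcx, Draxin and Agbl1 are also outside it and were named for their 0 counts.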

Additional observations from a re-analysis of the deposited data

Results flagged for a closer look

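Of 34 groups of 4 libraries examined, 5 held a library whose distance from its nearest neighbour made up most of the group's range; chance gives such a value in about 1 of 20 groups. In 4 of the 5 it was 24m replicate 1, which was high among the 24m libraries for Tuba4a (964.8 CPM), Tubb3 (974 CPM), Tubb5 (1058 CPM) and the summed tubulin level (11299 CPM). These 4 values are not independent, since the sum contains the genes. The same library stood apart on the second principal component and had the smallest share of mitochondrially encoded counts, 6.48%, against 7.92 to 10.9% in the other 7 libraries; the part of either in the tubulin values was not tested. The remaining value was the total count of 6m replicate 2, 573152, the lowest of its age.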

How the results depend on the processing

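Over all alternatives, 0 members were changed by both thresholds, and 6 were changed when adjusted p alone was the rule. The number of members with an adjusted p of at most 0.05 was 6 with the main setting, 3 on library sizes alone and 0 on quantile-normalised counts with DESeq2, and 2 to 6 with a library left out. Genes changed in all numbered 1359, against 834 with DESeq2 on raw counts and 819 on quantile-normalised counts. On library sizes alone 84.5% of the 1441 changed genes were higher at 24m, against 71.2% with TMM. The difference in summed tubulin level on the log2 scale was -0.255 with TMM and -0.151 on library sizes alone. The log2 ratio difference of Tubb2a to Tubb2b was -0.533 to -0.406 with a library left out, and without any of the 24m libraries its exact p was 0.057, with 35 assignments. That of Tubb4a to Tubb4b was 0.28 to 0.446 with a library left out, the highest (exact p = 0.029) without 6m replicate 1. With any other library left out its exact p was 0.057 to 0.086.

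Signs changed for genes that were not called. Tuba1c was at 0.07 on library sizes alone, 0.01 with more than 5 counts required in every library, and -0.18 to 0.09 with a library left out. Tuba4a was at 0.01 on library sizes alone, 0.08 on quantile-normalised counts and -0.20 with the length trend taken off. Cst3 was at 0.06 on quantile-normalised counts and 0.04 with the length trend taken off, Ttr at 0.15 and 0.00 in these settings, and Pvalb at 0.01 on library sizes alone and 0.09 on quantile-normalised counts. With a library left out, Ttr was at -0.27 to 0.05 and Pvalb at -0.24 to 0.04. On library sizes alone these shifts were about as large as that of the median of all genes, 0.105; the cause of the others was not tested. A block for replicate number gave 1308 changed genes, of which 1254 were shared with the unblocked fit, but same-numbered libraries of the 2 ages correlated no better than others (r of 0.209, -0.026, 0.094 and -0.255), so the numbers do not pair mice. Leaving out the genes with no exonic base of their own, and the length trend, were chosen after seeing the data. Depth limits genes such as Tubd1, with 2 to 10 counts per library, and Scaper, with 7 to 25.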
